A study of Mus musculus with 4 samples.

Results

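Slc6a13, Itih2, Apod, Dcn, Lum, Igfbp7, Vtn, Rgs5 and Tagln are genes used as markers of meningeal fibroblasts and of the walls of brain vessels. Their mRNAs were examined in bulk RNA of mouse oligodendrocyte cultures with and without a conditional knockout of the palmitoyltransferase gene Zdhhc5. Astrocyte markers were also high in these cultures, as given below, so the RNA was not of oligodendrocytes alone. The genes were chosen by name because several of them were higher in the knockout cultures. The genotype difference in this set is therefore given as a description, with no test. Of these 9 genes, 7 were among the 6940 genes listed, and these 7 are described here. Rgs5 and Tagln had no entry and were not analysed here. Only genes that the authors called were listed, so a gene without an entry may be unchanged or untested. Cortical cells of C57BL/6 mice at postnatal day 5 were selected by panning with antibodies against GalC and then O4, grew for 6 days and were harvested 24 h after a switch to medium with 40 ng/mL of triiodothyronine. The 2 control libraries had the genotype Zdhhc5fl/fl. The 2 conditional knockout (cKO) libraries had the genotype Olig1cre/+;Zdhhc5fl/fl. Floxed alleles were thus shared by all 4 libraries, and the Cre allele at the Olig1 locus was present in the cKO cultures alone. The loss of Zdhhc5 therefore cannot be told apart from effects of Cre or of the changed Olig1 locus, and Zdhhc5 itself was not analysed here. The labels do not say that replicates are separate animals or cultures, so p-values measure only the spread between these libraries, which may be technical.

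The meninges are the membranes that cover the brain. Their fibroblasts, and those that follow vessels into the tissue, secrete collagens and the small leucine-rich proteoglycans that bind collagen fibrils, and they carry transporters that move solutes between brain and cerebrospinal fluid. Pericytes and smooth muscle cells wrap the vessels and share part of this programme. Oligodendrocytes make myelin and arise from another lineage, although maturing oligodendrocytes are known to make Apod as well.

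All 7 listed genes were at least 2-fold higher in the cKO libraries, with ratios of mean normalised reads from 2.15 for Igfbp7 to 5.12 for Apod. Normalised reads are read counts divided by 1 scaling factor for each library. In each of the 7 genes the cKO libraries were above the control libraries without overlap, which was so for 46.7% of all listed genes, while 53.3% had the cKO libraries below without overlap. Every listed gene, these 7 included, was called (limma, adjusted p under 0.05), 46.7% of them higher and 53.3% lower. Of all listed genes 5.68% were called and at least 2-fold higher on the log2(value + 1) scale, and 11.7% at least 2-fold lower. These shares are given for scale only and the calls of the 7 support nothing, because the choice of the 7 genes used this contrast and the table lists called genes. Their median log2 fold change was 1.78, beside -0.22 over all listed genes.

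**Figure D1:**
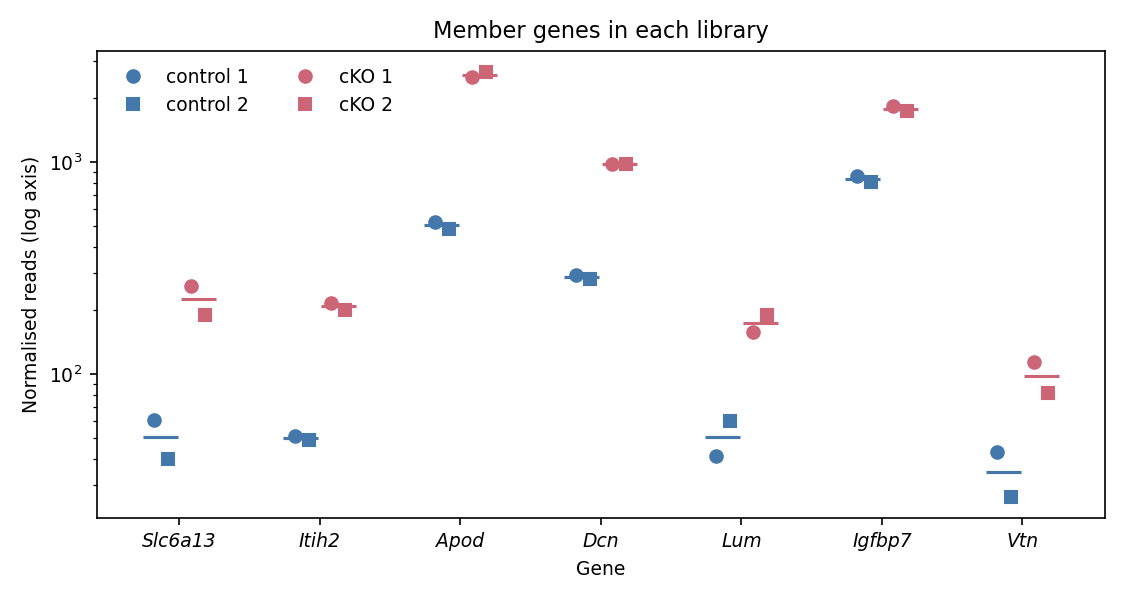
Normalised reads (log axis) of the 7 genes in each library, with control libraries in blue, cKO libraries in red, circles for replicate 1, squares for replicate 2 and horizontal lines at the genotype means. In each gene both red points lie above both blue points, from the narrow pairs of Dcn (977.3 and 984.9 in cKO) to the wide ones of Vtn (114.3 and 81.9 in cKO).

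The DNA before the start sites is shown to compare the genes in base composition and in common promoter motifs. RefSeq's table for GRCm38.p6 held the region before the start for 5 of the 7 genes, and the 250 bases before the start site were searched on both strands for 4 motifs. The TATA box core, spelled TATAAA, was in 12.4% of all 32851 such windows and the CCAAT box in 33.8%. The GC box, spelled GGGCGG, was in 32.7% of them. The AP-1 site, spelled TGANTCA, was in 6.75%. Over all windows the median GC content was 52.4%. The windows of 4 genes are shown 5′ to 3′ on the strand of the gene, with matches in capitals.
Slc6a13: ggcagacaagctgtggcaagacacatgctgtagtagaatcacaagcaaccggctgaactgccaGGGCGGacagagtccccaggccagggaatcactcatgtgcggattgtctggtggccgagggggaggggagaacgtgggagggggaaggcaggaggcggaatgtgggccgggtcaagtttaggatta
Itih2: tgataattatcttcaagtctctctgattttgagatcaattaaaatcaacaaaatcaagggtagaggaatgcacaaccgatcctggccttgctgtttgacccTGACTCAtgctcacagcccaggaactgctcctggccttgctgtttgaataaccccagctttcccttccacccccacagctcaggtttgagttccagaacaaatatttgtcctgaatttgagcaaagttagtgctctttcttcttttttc
Apod: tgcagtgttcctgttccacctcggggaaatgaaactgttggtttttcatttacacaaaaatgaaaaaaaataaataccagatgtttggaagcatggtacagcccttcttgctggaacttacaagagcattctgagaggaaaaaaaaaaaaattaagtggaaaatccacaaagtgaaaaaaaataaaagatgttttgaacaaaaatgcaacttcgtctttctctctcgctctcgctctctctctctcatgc
Igfbp7: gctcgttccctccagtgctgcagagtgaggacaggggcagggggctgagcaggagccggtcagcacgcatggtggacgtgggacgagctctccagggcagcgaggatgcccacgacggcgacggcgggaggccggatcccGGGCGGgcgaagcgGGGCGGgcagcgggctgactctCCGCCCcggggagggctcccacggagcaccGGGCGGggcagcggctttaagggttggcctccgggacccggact

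The window of Slc6a13 (chr6:121300038-121300226, plus strand) is cut to the 189 bases before its annotated exon, and of 3 start sites in the table it belongs to the one nearest the deposited gene start. Over all 250 bases it had 60.8% GC, with a GC box at 187 to 182 bases before the start and another at 50 to 45. The window of Itih2 (chr2:10130684-10130933, minus strand), whose RefSeq start lies within the deposited gene span, had 43.2% GC and 1 AP-1 match, at 149 to 143 bases before the start. That of Apod (chr16:31314809-31315058, minus strand) had 36.4% GC and no match to the 4 motifs, and 93.8% of all windows had at least its GC content. That of Igfbp7 (chr5:77408046-77408295, minus strand) had 74.0% GC and 4 GC box matches, and 4.91% of all windows were as rich in GC. The window of Vtn had 50.4% GC and overlapping matches to TATAAA on both strands, 137 to 130 bases before the start. No motif was shared by all 5 windows, and a match describes letters only.

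Slc6a13 encodes GAT2, a transporter that carries GABA and taurine and is known in the brain from the meninges. The gene (ENSMUSG00000030108) lies on chromosome 6 from 121300227 to 121337733 of GRCm38, on the plus strand. It was measured at 61.0 normalised reads in control library 1, 39.7 in control library 2, 260.5 in cKO library 1 and 191.0 in cKO library 2. The cKO libraries were thus high and did not overlap the controls, at 226 ± 49.1 against 50.4 ± 15.1 normalised reads (mean ± SD, n = 2 each), a ratio of 4.48 (log2 fold change 2.16, SE 0.20). The cKO libraries also differed from each other. Exact Poisson intervals (95%) on the recovered reads, 319 in cKO 1 and 161 in cKO 2, span 232.7 to 290.7 and 162.7 to 222.9 on the normalised scale, and they do not meet. These intervals, and those below, cover counting error only, since reads amplified by PCR are not independent molecules. The higher cKO value was 1.36 times the lower, and 2.06% of the 776 listed genes of a like cKO level had cKO values at least that far apart.

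Itih2 encodes a heavy chain of inter-alpha-trypsin inhibitor, a secreted protein that is joined to hyaluronan and steadies the matrix. It lies on chromosome 2 from 10094593 to 10131396, on the minus strand (ENSMUSG00000037254). Its values were 51.0 and 48.9 in controls against 216.4 and 201.7 in cKO. Both groups were tight, at 49.9 ± 1.51 and 209 ± 10.4, and the ratio was 4.19 (log2 fold change 2.04, SE 0.17). Its reads numbered 51 and 48 in the controls, so that the counting interval of control 1, from 38.0 to 67.1, was far wider than the gap between the control libraries.

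Decorin (Dcn) and lumican (Lum) are small leucine-rich proteoglycans that bind collagen fibrils and limit their width, and decorin also binds TGF-beta. Dcn (ENSMUSG00000019929) spans 97479609 to 97518143 of chromosome 10, and Lum (ENSMUSG00000036446) spans 97565128 to 97572703, on the same plus strand and 46984 bases further on. Dcn had values of 294.0 and 280.0 in controls against 977.3 and 984.9 in cKO. With means of 287 ± 9.91 and 981 ± 5.32 its ratio was 3.42 (log2 fold change 1.77, SE 0.08), and its cKO libraries were the closest pair of the 7 genes, 1.01-fold apart. Lum had values of 41.0 and 60.1 in controls against 157.6 and 189.9 in cKO. The groups stood apart, at 50.5 ± 13.5 and 174 ± 22.8, and the ratio of 3.44 (log2 fold change 1.78, SE 0.20) was close to that of Dcn. Dcn thus gave 4.66 to 7.17 normalised reads for each one of Lum in controls against 5.19 to 6.20 in cKO, ranges that overlap. The protein-coding genes next to Lum, Kera and Epyc, which encode further proteoglycans of this family, were not among the listed genes.

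Apod encodes apolipoprotein D, a secreted lipocalin that carries small hydrophobic molecules. It lies on chromosome 16 from 31296192 to 31314808, on the minus strand (ENSMUSG00000022548). Its values were 524.0 and 485.6 in controls against 2508.3 and 2660.3 in cKO. Apod had the largest ratio of the 7 genes, 5.12, from 505 ± 27.1 to 2584 ± 108 (log2 fold change 2.35, SE 0.06), and ranked 17 among the 6940 listed genes by log2 fold change. In the same libraries the 10 oligodendrocyte lineage markers examined, all listed, were all lower in cKO, with log2 fold changes from -2.92 to -0.52, their summed value being 335700 and 337780 in controls against 76449 and 77919 in cKO.

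Igfbp7 encodes a secreted protein that binds insulin-like growth factors weakly and is made by vascular cells. It lies on chromosome 5 from 77349240 to 77408041, on the minus strand (ENSMUSG00000036256). Its values were 857.0 and 805.3 in controls against 1835.5 and 1741.9 in cKO. At 831 ± 36.5 against 1789 ± 66.2, its ratio of 2.15 was the smallest of the 7 (log2 fold change 1.10, SE 0.06). Vtn encodes vitronectin, an adhesion protein of plasma and matrix that pericytes express in the brain, and lies on chromosome 11 from 78499091 to 78502324 (ENSMUSG00000017344). Its values were 43.0 and 26.5 in controls against 114.3 and 81.9 in cKO, its means being the lowest of the set, with a ratio of 2.82 from 34.7 ± 11.7 to 98.1 ± 22.9 (log2 fold change 1.49, SE 0.26). Between 26 and 140 reads stood behind these values. Every control interval lay below every cKO interval even so, the closest being control 1 up to 57.9 and cKO 2 from 63.7.

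Folds between single libraries show how far the order of the ratios rests on the library used. Any cKO library over any control library gave 4.79 to 5.48 for Apod, 3.96 to 4.43 for Itih2, 3.32 to 3.52 for Dcn and 2.03 to 2.28 for Igfbp7, and these ranges do not meet. For Itih2 the counting intervals, 36.0 to 67.1 over the controls and 172.5 to 244.1 over the cKO libraries, are wider than the gaps between its libraries, so its place beside Apod and Dcn is not fixed. Slc6a13 (3.13 to 6.56), Lum (2.62 to 4.63) and Vtn (1.90 to 4.32) spanned several of these ranges, so their places are not fixed either.

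**Figure D2:**
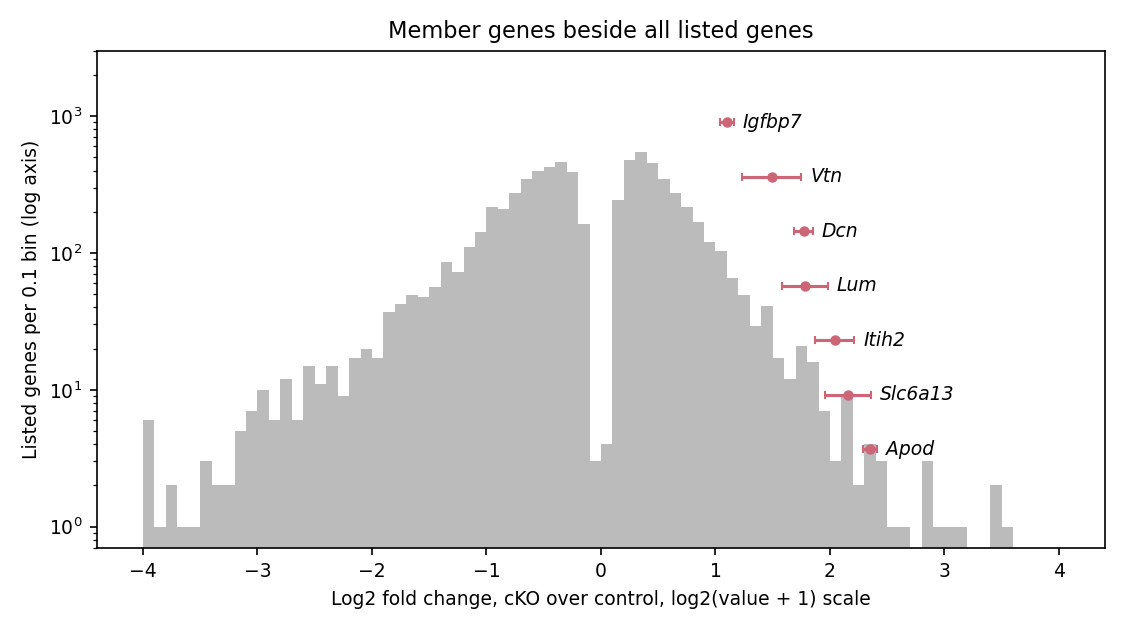
Histogram of the log2 fold change (cKO over control) of all 6940 listed genes, with values beyond 4 in either direction drawn in the end bins, and the 7 genes as red points with bars of 1 SE (their height carries no value). The gap at 0 reflects that only called genes are listed, and the red points run from 1.10 (Igfbp7) to 2.35 (Apod).

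Levels were compared between genes as normalised reads per kilobase of the deposited gene length. In the controls Igfbp7 was at 688 and Apod at 196, followed by Dcn at 49.2. Lum at 20.6, Slc6a13 at 17.3, Vtn at 17.1 and Itih2 at 15.1 followed. The library values of Slc6a13 and Vtn overlapped those of each of these genes, while Lum lay above Itih2. In the cKO libraries Igfbp7 (1479) and Apod (1003) again stood first, ahead of Dcn (168). Slc6a13 at 77.7, Lum at 71.0 and Itih2 at 63.1 came next. Lum overlapped both others between libraries, while Vtn was last at 48.3, its higher library (56.3) under the lowest value of Itih2 (60.9). Counting error is not included in these comparisons. With 41 reads behind Lum in control 1 and 140 behind Vtn in cKO 1, their places beside Itih2 are not fixed.

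Summed over the 7 genes, normalised reads were 1871 and 1746 in controls against 6070 and 6052 in cKO, or 0.0110%, 0.0102%, 0.0370% and 0.0373% of the reads in listed genes. The makeup of that sum differed between genotypes. Igfbp7 gave 45.8% and 46.1% of it in controls against 30.2% and 28.8% in cKO. Apod gave 28.0% and 27.8% in controls against 41.3% and 44.0% in cKO. The share of Dcn stayed between 15.7% and 16.3%, and Apod relative to Dcn went from 1.78 and 1.73 in the controls to 2.57 and 2.70 in the cKO libraries. The genes therefore were not scaled by 1 common factor on the deposited scale.

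**Figure D3:**
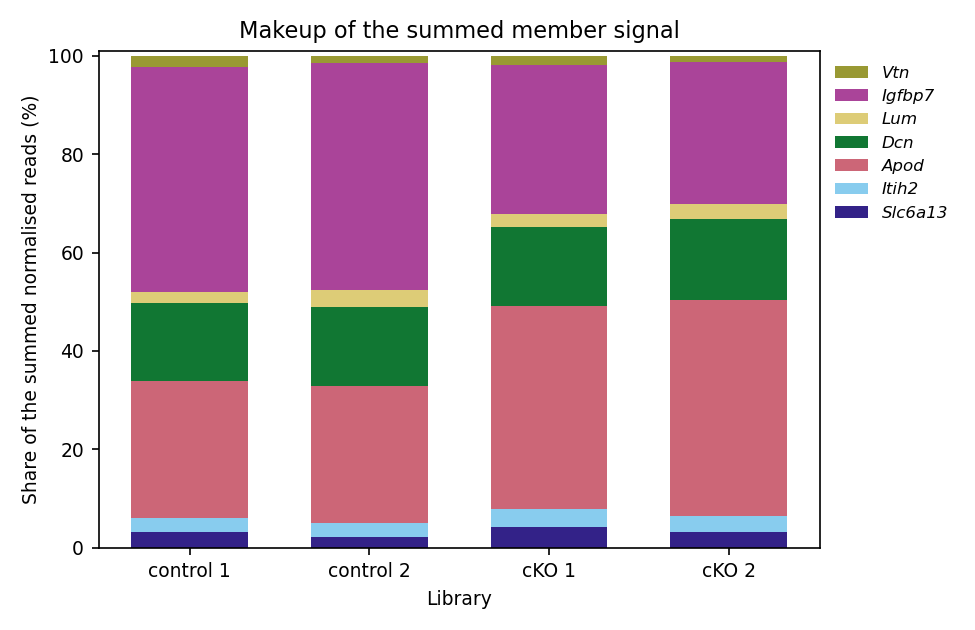
Share (%) of the summed normalised reads of the 7 genes that each gene supplied, one stacked bar for each library. Igfbp7 (purple) takes 45.8% and 46.1% in the controls against 30.2% and 28.8% in the cKO libraries, and Apod (red) 28.0% and 27.8% against 41.3% and 44.0%.

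The order of the genes changed when values were corrected for base composition. GC content of the transcripts ranged from 40.1% for Dcn and 41.9% for Lum to 55.4% for Vtn and 59.0% for Igfbp7, around a median of 49.5% that was close to the 49.8% of all listed genes. When the trend of each library with GC content was removed, the log2 fold changes of Dcn and Lum went from 1.77 and 1.78 to 2.55 and 2.44, while those of Igfbp7 and Vtn went from 1.10 and 1.49 to 0.67 and 1.10. Apod stayed near its value at 2.37, Itih2 went to 2.28 and Slc6a13 to 1.82. Dcn then stood above Apod, so the difference between Apod and Dcn turned around. With gene length removed as well, Igfbp7 was at 0.48 and Vtn at 0.93. Whether GC content is what sets these differences between the genes was not tested.

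**Figure D4:**
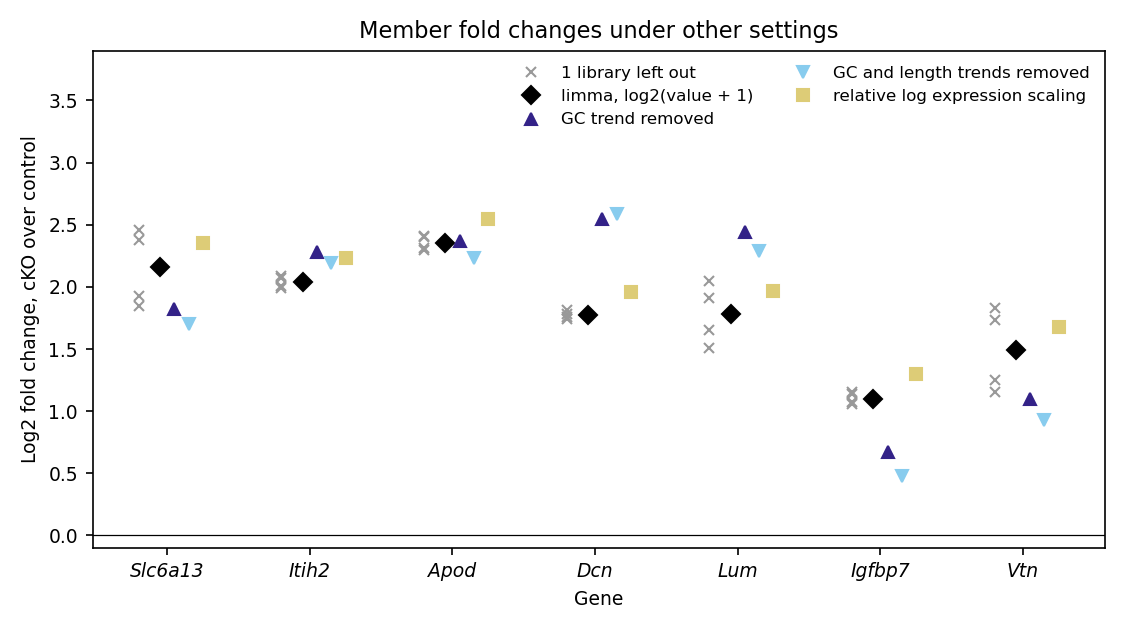
Log2 fold change (cKO over control) of the 7 genes with limma on log2(value + 1) (diamonds), with 1 library left out (crosses), with relative log expression scaling (squares) and with the trends with GC content (upward triangles) or GC content and length (downward triangles) removed. Every point lies above 0, and Dcn and Lum go up (to 2.55 and 2.44) and Igfbp7 and Vtn down (to 0.67 and 1.10) when the GC trend is removed.

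Genes that mark meningeal fibroblasts moved with these 7. Of 28 identity genes examined 16 were in the table. Genes without an entry, here and in the further lists, may be unchanged or untested, so the counts describe listed genes only. In cKO 15 of these rose and 1 fell (limma adjusted p under 0.05), and their median log2 fold change was 1.41. Of all listed genes 46.7% rose and 53.3% fell, with a median of -0.22, and the counts of the further lists are to be read beside these shares. Osr1, a transcription factor of mesenchymal cells, rose from 6.0 and 4.1 to 45.7 and 40.3 (log2 fold change 2.88, SE 0.44, adjusted p 5.13e-06). Aldh1a2, which makes retinoic acid in the meninges, rose from 123.0 and 137.4 to 479.3 and 520.9. Slc6a20a, a proline transporter, rose from 17.0 and 8.1 to 38.4 and 58.1. The exception was Ptgds, which makes prostaglandin D2 and is also expressed by oligodendrocytes, at 2044.0 and 2047.4 in controls against 1391.3 and 1358.6 in cKO. Genes that rose, here and in the further lists, may be expressed by other cell types as well, which was not examined. The summed value of the listed genes was 5370 and 5311 in controls against 8906 and 8661 in cKO, and none of them was at 0 in any library. In bulk RNA, more cells of a type and more RNA from each such cell cannot be told apart, and the part of fibroblasts in the higher values was not tested.

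Fibroblast matrix genes rose in every listed case, 20 of 26 genes being listed, with a median log2 fold change of 1.05. The largest rises were those of the type I collagen chains Col1a1 (log2 fold change 1.77) and Col1a2 (1.69) and of Nid1, the basement membrane protein nidogen, which rose from 1145.0 and 1108.7 to 3707.7 and 3631.0 (1.70, SE 0.05, adjusted p 2.25e-19). The smallest rises, of the elastic fibre genes Loxl1 (0.38) and Fbln2 (0.33), turned to -0.08 and -0.09 with the GC trend removed. The summed value of the 20 genes was 23728 and 22808 in controls against 51920 and 50843 in cKO. Most of it came from Sparc (9805.0 and 9318.9 against 20183.0 and 20505.5) and Serpinh1 (3834.0 and 3748.7 against 7289.7 and 7008.0).

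The proteoglycans related to Dcn and Lum rose too. All 6 of the 14 other family members found in the table rose (median log2 fold change 1.14). Prelp rose from 82.0 and 94.7 to 236.8 and 249.2 (1.45), biglycan (Bgn) from 838.0 and 852.2 to 2367.8 and 2077.7 (1.39), and fibromodulin (Fmod) from 39.0 and 43.8 to 112.7 and 106.8 (1.39). Tsku rose least (0.53) and lost its call with the GC trend removed (0.12).

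Among partners of Itih2 in the hyaluronan matrix, 8 of 19 genes were in the table, of which 6 rose and 2 fell (median log2 fold change 0.46). Cemip, which breaks hyaluronan down, rose from 391.0 and 410.3 to 1419.1 and 1409.7 (1.82, SE 0.07, adjusted p 8.52e-17), and Itih5, a relative of Itih2, rose from 974.0 and 898.0 to 1757.9 and 1733.6 (0.90). Hapln2, a link protein of the nodes of Ranvier, fell from 54.0 and 52.9 to 9.0 and 9.5 (-2.41). The fall of versican (Vcan, -0.54) and the rise of Hyal2 (0.40) did not keep their directions with GC content and length removed (0.11 and -0.12). Hyal1 rose (0.53) but lost its call with the GC trend removed (0.21).

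Transporters related to Slc6a13 were mixed: 6 of 18 were in the table, of which 4 rose and 2 fell (median log2 fold change 0.65). Slc6a20a, given above, had the largest change. Slc6a11, the GABA transporter GAT3 of astrocytes, rose from 4398.0 and 4312.8 to 9210.9 and 8448.5 (1.02, SE 0.04, adjusted p 1.41e-16), and Slc6a17 rose from 503.0 and 535.5 to 871.2 and 886.4 (0.76). The taurine transporter Slc6a6 (-0.68) and the creatine transporter Slc6a8 (-0.57) fell. Slc6a9 rose (0.54) but lost its call with the GC trend removed (0.13). Of 16 genes of apolipoproteins, lipocalins and receptors that bind such proteins 6 were in the table, of which 5 rose and 1 fell (median 0.51). The largest change after those of Clu (0.78) and Ptgds (-0.57) was that of Lcn2 (0.54), which lost its call with the GC trend removed (0.21), as did Lrp1 (0.48, then 0.06). Apoe (0.53) and Bsg (0.45) were at 0.09 and 0.04 with the GC trend removed and at -0.07 and -0.13 with length removed as well.

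Of 13 genes for insulin-like growth factors, their receptors and binding proteins, 7 were in the table, of which 6 rose and 1 fell (median 0.78). Igfbp4 rose from 629.0 and 672.0 to 1812.6 and 1751.4 (1.45, SE 0.06, adjusted p 6.77e-16), a larger change than that of Igfbp7. Igfbpl1 (1.24) and Igfbp5 (0.89) came next. The insulin receptor gene Insr, the one that fell (-0.49), was at 0.05 with GC content and length removed. Receptors of vitronectin and the plasminogen system it binds were split: 8 of 12 were in the table, of which 4 rose and 4 fell (median 0.10). Itgb5, a vitronectin receptor chain, rose from 1336.0 and 1403.0 to 2899.4 and 2802.7 (1.06), Itgb3, another, fell from 226.0 and 203.6 to 98.0 and 116.3 (2.01-fold lower), and Itga5 of the fibronectin receptor rose (0.96). The falls of Itgb1, Itgav and Itgb8 (-0.35, -0.21 and -0.12) turned to 0.11, 0.08 and 0.46 with the GC trend removed. Genes of TGF-beta, a ligand of decorin, and of its signalling were split as well: 12 of 15 were in the table, of which 7 rose and 5 fell (median 0.47). The coreceptor Eng rose (1.71), and the inhibitor Smad7 (-1.46) and the receptor Tgfbr1 (-1.27) fell, while the rise of the latency protein gene Ltbp4 (0.34) turned to -0.13 with the GC trend removed. Smad2 (-0.47) lost its call with the GC trend removed (-0.14), and Smad4 (-0.28) with relative log expression scaling (-0.09). Tgfb3 (0.61) lost its call with GC content and length removed (0.23).

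Markers of vessel cells moved with Vtn and Igfbp7 in part. Of 13 pericyte genes 6 were in the table and each of the 6 rose (median 1.34). Pdgfrb, among these, is also counted with the meningeal identity genes. Their summed value was 2476 and 2572 in controls against 3968 and 3874 in cKO. Most of that sum came from Notch3, at 2007.0 and 2050.5 against 2761.4 and 2545.2. Ifitm1 rose from 49.0 and 77.4 to 204.1 and 249.2, Anpep from 33.0 and 44.8 to 103.7 and 130.5, and the potassium channel gene Kcnj8 from 39.0 and 29.5 to 82.5 and 112.7. Notch3 (0.39) turned to -0.05 with the GC trend removed. Of 13 smooth muscle genes 6 were in the table, of which 5 rose and 1 fell (median 0.74). Their summed value was 6622 and 6518 against 8984 and 8433. Most of it came from Tpm1 (2500.0 and 2360.0 against 3321.5 and 3248.9) and Cald1 (2517.0 and 2564.6 against 2370.3 and 2138.2). Their largest rise was that of Acta2, smooth muscle actin, from 339.0 and 352.3 to 913.7 and 887.6 (1.38), followed by Myl9 (0.88) and Tpm2 (0.84). With the GC trend removed Tpm2 (0.43) and Mylk (0.64, then 0.31) lost their calls. The fall of Cald1 (-0.17) turned to 0.02 with relative log expression scaling and 0.23 with the GC trend removed. Of 17 endothelial genes 5 were in the table, of which 3 rose and 2 fell (median 1.71), with sums of 513.0 and 518.2 against 596.0 and 625.3. Cdh5 (2.67), Emcn (1.86) and Eng (1.71) rose. Kdr, the main receptor of vascular endothelial growth factor, fell from 199.0 and 161.9 to 88.2 and 100.9 (-0.92), and Vwf fell from 226.0 and 264.7 to 153.5 and 186.3 (-0.53) and lost its call with relative log expression scaling (-0.34). Of 10 astrocyte markers 9 were in the table, of which 7 rose and 2 fell (median 0.63), with sums of 506319 and 507134 against 764043 and 757260. These sums were above those of the oligodendrocyte lineage markers in each library (335700 and 337780 in controls against 76449 and 77919 in cKO). Most of the astrocyte sum came from Gfap (351481 and 352111 in controls against 557247 and 553584 in cKO). In the controls the order of the sums of astrocyte and oligodendrocyte markers rests on this gene. Log2 fold changes of the astrocyte markers ran from -1.63 to 0.78. S100b, which maturing oligodendrocytes also express, had the largest change and fell from 2676.0 and 2733.7 to 796.9 and 954.0. Aqp4 (-0.16) and Fgfr3 (0.32) turned to 0.08 and -0.10 with the GC trend removed. No gene of these lists in the table was at 0 in any library. The part of each of these cell types in the values of the 7 genes was not tested.

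**Figure D5:**
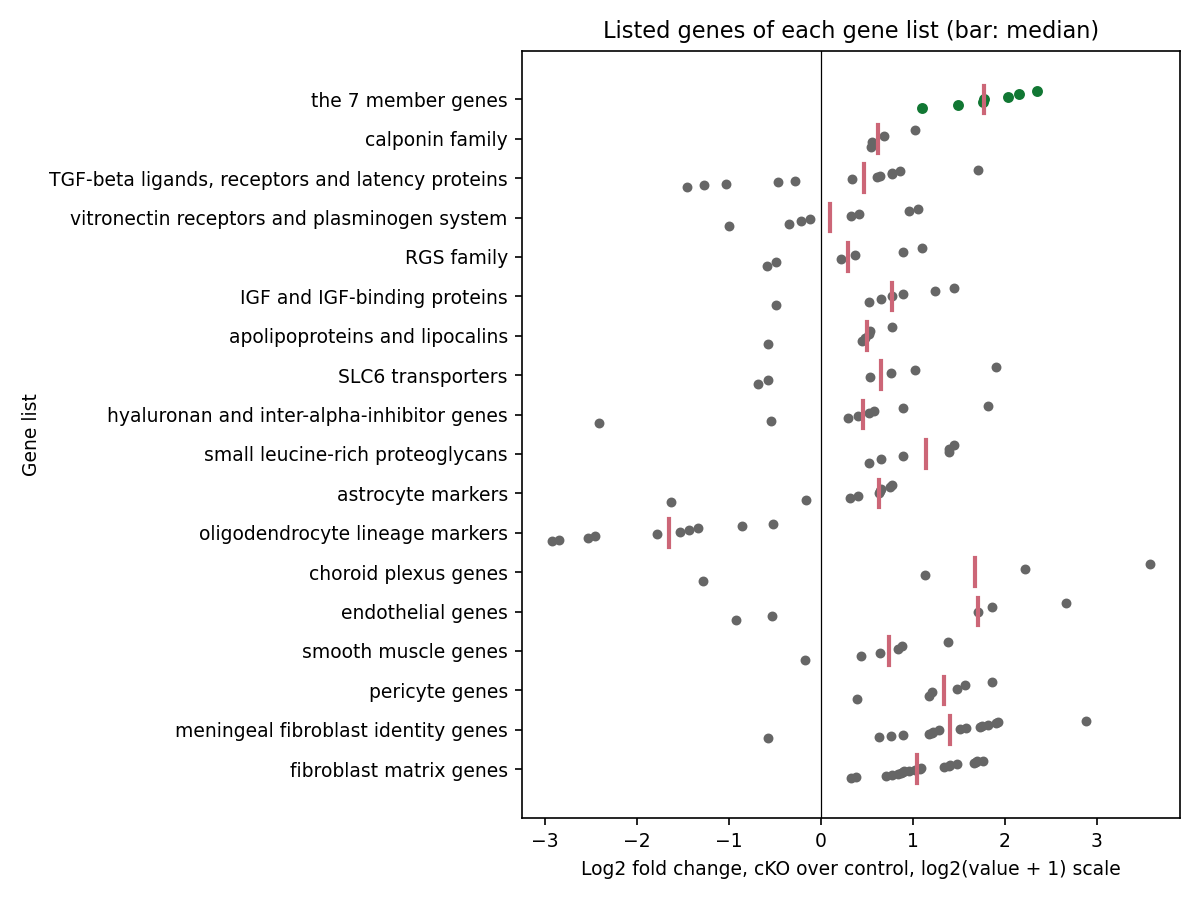
Log2 fold change (cKO over control) of each listed gene in the gene lists, with a red bar at the median of a list and the 7 genes in green on the top line. The matrix, pericyte and leucine-rich proteoglycan lists lie right of 0 (medians 1.05, 1.34 and 1.14; Loxl1, Fbln2 and Notch3 turn with the GC trend removed), as does the meningeal list (1.41) with the exception of Ptgds, and the oligodendrocyte markers lie left of 0.

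The listed genes whose 4 values lay nearest to the mean pattern of Slc6a13, Itih2, Apod and Dcn were found by the distance between log2(value + 1) profiles, each centred on its own mean, over the 4 libraries. The nearest was Cyp26b1, which degrades retinoic acid, at 119.0 and 92.6 in controls against 437.6 and 475.8 in cKO, with a distance of 0.196. Adm, which encodes the vessel-dilating peptide adrenomedullin, followed at 36.0, 37.7, 181.3 and 161.4 (0.224), and then Ripply1, a transcriptional corepressor, at 12.0, 13.2, 62.1 and 55.8 (0.250). Myzap, which encodes a protein of cell junctions, was at 30.0, 30.5, 115.1 and 110.4 (0.278). Gm5417, a processed pseudogene whose reads may belong to its parent gene, was at 31.0, 27.5, 124.9 and 96.1 (0.281). Of the 4 genes that made the pattern, Itih2 lay at 0.114, Apod at 0.315, Dcn at 0.338 and Slc6a13 at 0.373, so that 3 of them were farther from it than these 5 genes. Lum (0.667), Vtn (0.724) and Igfbp7 (0.980), which were not used for the pattern, lay farther still. With 4 libraries in 2 groups this measure reads mainly the size of the genotype difference.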

How the data were processed

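Expression was measured in 4 RNA-seq libraries, 2 control and 2 cKO. The authors deposited 1 table whose values are, from the values themselves, a normalised signal (reads divided by 1 size factor per library), with their log2 fold change, p-value and adjusted p-value per the file headers. DESeq2 and the builds mm10 and GRCm38 are named per the submitters' processing notes, and the aligner, counter, strand setting and annotation are not given in the sources used here. All 6940 listed genes had an authors' adjusted p under 0.05, so only called genes were examined, and 17347 genes lay behind the adjustment. Values were whole multiples of 1 step in each library (100% within 0.01 read). The recovered reads in listed genes numbered 17077509 and 16773675 in the controls and 20068016 and 13672254 in cKO 1 and cKO 2, which is not the whole depth. The 2 libraries of a genotype differed beyond counting noise (chi-square per gene 2.31 in controls and 3.35 in cKO) and were kept as separate replicates.

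Genotypes were compared with limma 3.58.1 (R 4.3.3) on log2(value + 1) with a variance trend, 2 residual degrees of freedom and Benjamini-Hochberg adjustment over 17347 genes, and all 6940 passed a value of at least 1 in 2 libraries. Since these genes were selected for their difference, their p-values may be too low. edgeR 4.0.16 and DESeq2 1.42.0 on recovered reads, other scalings, filters and pseudocounts, trends with GC content (GENCODE M21 transcripts, 99.9% of genes) and length, left-out libraries and a replicate block were alternatives. Tested on simulated data of 6940 genes, limma recovered 98% of 50 genes changed 1.5-fold and 100% of 50 changed 2-fold, with 5 false calls. Only 50 genes at each of the folds 1.25, 1.5, 2 and 4 were changed there, and adjustment was over 6940 genes. In the data every listed gene was called beforehand and adjustment was over 17347 genes, so these rates do not carry over to the listed genes. The members and the 17 lists were chosen with earlier results of these data known. Pdgfrb, Cemip, Itih5, Slc6a20a, Ptgds, Clu and Eng are each in more than 1 list, so the counts of different lists are not independent. In each list the 3 largest changes are named (for oligodendrocyte and astrocyte markers the range, with S100b and Gfap). Further genes are named because their direction turned, their call was lost or they supplied much of a sum. Other comparisons were picked after their values were seen. The 5 nearest profiles are named. No columns of other samples were present (0).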

Additional observations from a re-analysis of the deposited data

How the results depend on the processing

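The log2 fold changes of the 7 genes were above 0 in each of the 17 alternatives, which is no sign of stability, since the genes were chosen on this difference. With 1 library left out their log2 fold changes ranged from 1.06 to 1.15 for Igfbp7, 1.15 to 1.83 for Vtn, 1.51 to 2.05 for Lum, 1.74 to 1.81 for Dcn, 1.85 to 2.46 for Slc6a13, 1.99 to 2.09 for Itih2 and 2.30 to 2.41 for Apod. A pseudocount of 5 gave 1.96 for Itih2. TMM scaling gave 2.42 for Apod, 1.84 for Dcn, 1.17 for Igfbp7 and 2.11 for Itih2, and relative log expression scaling, which moved the median of all genes by 0.19, gave 2.55, 1.96, 1.30 and 2.23. With the GC trend removed Dcn was at 2.55, Igfbp7 at 0.67, Itih2 at 2.28 and Lum at 2.44, also with the replicate block. With GC and length trends removed Apod was at 2.23, Dcn at 2.59, Igfbp7 at 0.48, Itih2 at 2.19, Lum at 2.29, Slc6a13 at 1.70 and Vtn at 0.93.

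Over all listed genes 3244 were called higher and 3696 lower, so 46.7% of calls were higher. Relative log expression scaling gave 3250 higher and 2914 lower, so 52.7% of calls were then higher. With the GC trend removed 2270 were higher and 2390 lower, with GC and length removed 2267 and 2449, and with the GC trend removed and the replicate block 2235 and 2342. The replicate block alone gave 3242 higher and 3696 lower. Libraries share only a number there, as deviations of same-numbered libraries had a correlation of 0.0133.

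Among the lists, the 1 smooth muscle gene called lower became 0 with TMM scaling, relative log expression scaling, the GC trend removed (with or without the replicate block) and GC and length removed, and 0 to 1 with 1 library left out. The 2 endothelial genes called lower became 1 with relative log expression scaling and 1 to 2 with 1 library left out. The 2 astrocyte markers called lower became 1 with relative log expression scaling. With the GC trend removed (with or without the replicate block) and with GC and length removed, 1 astrocyte marker, 1 hyaluronan gene, 1 vitronectin or plasminogen gene (2 with relative log expression scaling) and 0 insulin-like growth factor genes were called lower, and 2 genes of the apolipoprotein and lipocalin list higher. With GC and length removed 3 genes of that list were called lower and 2 calponin genes higher. At most 61 reads stood behind each control value of Slc6a13, Itih2, Lum and Vtn, which limits their folds.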

Other observations

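The families of Rgs5 and Tagln, which had no entry themselves, were also examined. Of 20 other RGS genes, which shorten signalling by G proteins, 6 were in the table, of which 4 rose and 2 fell (median log2 fold change 0.30). Rgs8 rose from 122.0 and 127.3 to 265.4 and 270.5 (1.10), Rgs10 rose from 129.0 and 135.4 to 257.2 and 239.7 (0.90), and Rgs16 fell from 772.0 and 728.0 to 529.1 and 465.1 (-0.59). Rgs12 (0.22) turned to -0.13 with the GC trend removed. Of 5 calponin family genes 4 were in the table and each of the 4 rose (median 0.63). Cnn2 rose from 382.0 and 363.5 to 790.4 and 736.9 (1.03), and Tagln2 (0.69) and Tagln3 (0.56) lost their calls once GC content and length were corrected for (0.11 and 0.05).

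Choroid plexus genes, which mark another tissue at the border of the brain, were in the table for 4 of 12, of which 3 rose and 1 fell (median 1.68). Ttr, the carrier of thyroid hormone made by this epithelium, rose from 69.0 and 61.1 to 791.2 and 787.9 (3.58, SE 0.12, limma adjusted p 5.79e-18). Clic6 rose from 3.0 and 6.1 to 25.3 and 22.5 (2.22). Enpp2, which oligodendrocytes also express, fell from 8662.0 and 8920.8 to 3547.7 and 3710.5 (-1.28).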
